A study of Sus scrofa with 4 samples.

Results

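Expression of 10 genes of muscle protein breakdown was read across the longissimus dorsi muscle, the long muscle of the back, of 4 pig breeds. They are 10 of the 18208 genes in the deposited table, chosen by name for their roles: 4 ubiquitin ligases (FBXO32, TRIM63, FBXO30 and FBXO31), 2 FOXO transcription factors (FOXO1 and FOXO3) and 4 autophagy genes (GABARAPL1, MAP1LC3B, SQSTM1 and ULK1). This choice was made with earlier results of these data known. Each of the 10 was found in 1 entry. In 8 the file gave the name as written here, while GABARAPL1 had no name in the file and FOXO3 stood as FOXO3A, so that these 2 were found by their gene ID. The indigenous Chinese type comprised the Tibetan pig (TP) and the Diannan Small Ear pig (DSP), and the introduced type comprised Yorkshire (YY) and Landrace (LL), with 1 library of frozen muscle per breed. The labels give no treatment, and no age, sex or feeding state, nor how many animals stand behind a library. The spread within a type is therefore that between breeds, and within a breed there is none to be had.

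Muscle loses protein by 2 main routes. In the ubiquitin-proteasome route, ligases attach ubiquitin to chosen proteins, which the proteasome then degrades. In autophagy, a membrane closes around cargo and delivers it to lysosomes. FOXO factors enter the nucleus when AKT, the kinase downstream of insulin and IGF1, is less active, and in rodent muscle they switch on ligase and autophagy genes together during fasting, disuse and glucocorticoid exposure.

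The values are FPKM (fragments per kilobase of transcript, scaled to the mapped total of the library) as deposited by the authors, with depth unknown and no counts, so counting error is not given. FPKM is scaled for length, so levels can be set side by side between genes. The deposited FPKM summed to between 880279 and 1450760 per library, lowest in TP and highest in DSP. Fibre genes showed that all 4 libraries are skeletal muscle: ACTA1, the actin of the sarcomere, was 47397 FPKM in TP, 39517 in DSP, 50812 in YY and 16778 in LL. Of 13 fibre markers 8 were found and 0 were listed at 0 in any library. Their sum was 88692 FPKM in TP, 79277 in DSP, 117641 in YY and 36934 in LL. In bulk muscle, fewer fibres and less RNA per fibre cannot be told apart.

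The levels of the 10 genes were lowest in TP for 9 of the 10, where TP was the lowest library for 34.5% of the 11652 genes averaging 1 FPKM or more over the 4 libraries. The exception was GABARAPL1, nearly equal in TP and DSP. Of the 10, 6 (FBXO32, TRIM63, FOXO1, FOXO3, SQSTM1 and ULK1) were at least 2-fold lower in TP than in each other library, on the log2(FPKM + 1) scale used for every difference below. Of all genes, 2.22% were. No test stands behind this, because each breed has 1 library and the 10 genes were chosen with earlier results of these data known. The count was 5 with the libraries brought to a common median ratio (1.84% of all genes), 4 with a common sum of loci of at least 300 bp outside the mitochondrial genome (0.79%) and 3 with a common level of the fibre markers (0.809%). FBXO32, TRIM63 and SQSTM1 were the 3 in that last count, and they were in each of the other counts too.

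**Figure D1:**
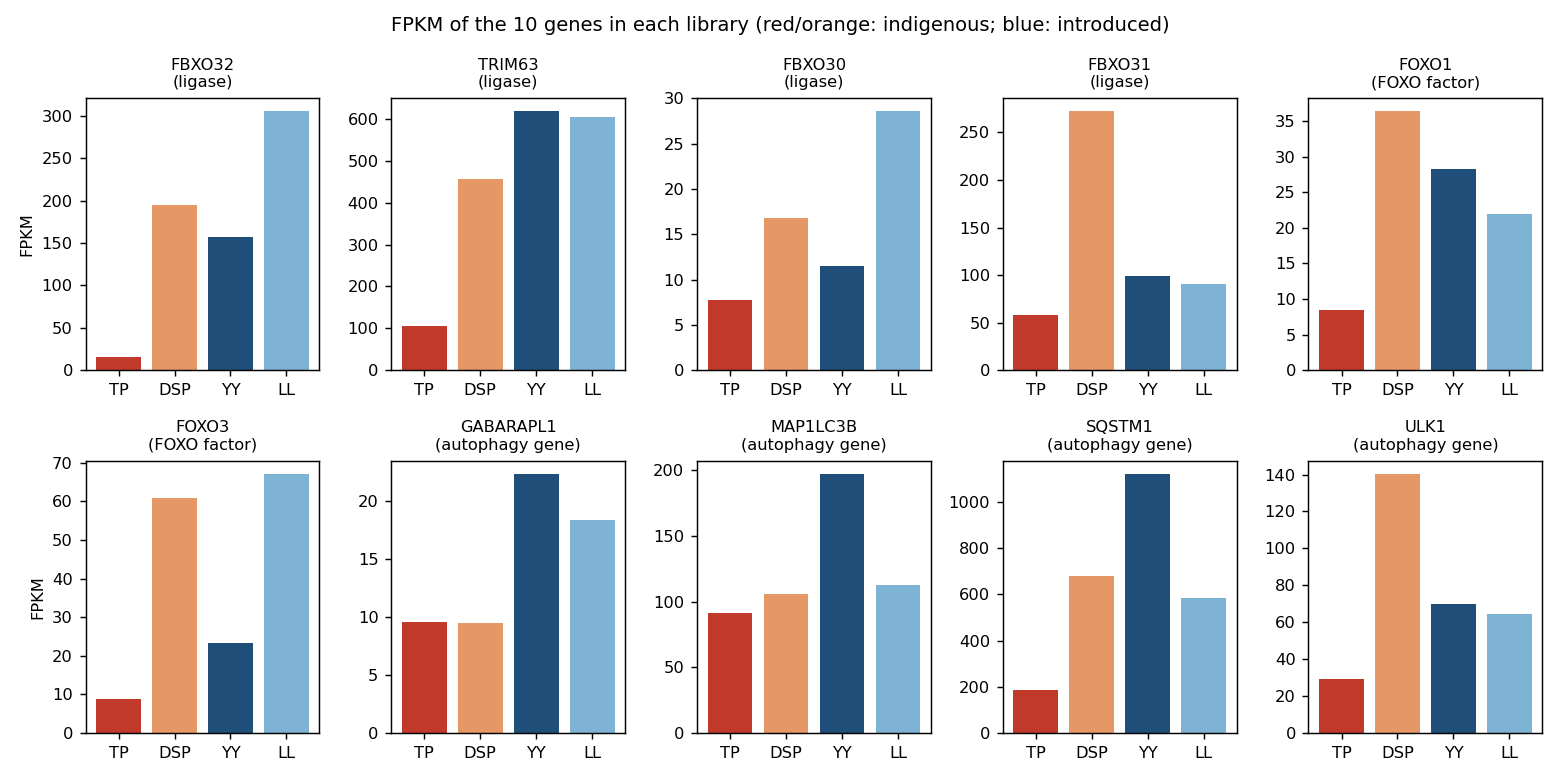
FPKM (vertical axis, from 0, scaled per gene) of the 10 genes in the TP, DSP, YY and LL libraries, 1 bar per library and no error bars since each breed has 1 library. TP is the lowest bar for every gene but GABARAPL1, where TP (9.54 FPKM) and DSP (9.46 FPKM) are nearly equal.

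FBXO32 encodes atrogin-1, the substrate-binding subunit of an SCF ubiquitin ligase that rises in rodent muscle during atrophy. In the deposited positions it lies on chromosome 4, 16638621 to 16669461; the genome build of these positions is not given in the sources used here. FBXO32 was 15.2 FPKM in TP, 195 in DSP, 158 in YY and 306 in LL. TP stood 10.4-fold under YY, the next lowest library, while the steps between YY, DSP and LL were 1.24-fold and 1.57-fold. FBXO32 differed by −3.60 in TP minus DSP, the 122nd lowest of 11689 genes, and by −0.95 in YY minus LL.

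TRIM63 encodes MuRF1, a RING-finger ligase that binds the sarcomere and marks myosin and other thick filament proteins. It lies on chromosome 6, 77129132 to 77143413. TRIM63 was 105 FPKM in TP, 457 in DSP, 619 in YY and 604 in LL. YY and LL were within 1.03-fold of each other, DSP was 1.32-fold under LL, and TP was 4.34-fold under DSP. The difference was −2.11 in TP minus DSP and 0.04 in YY minus LL, where the sign turned under the common sum (−0.54) and the fibre marker scaling (−1.54). TRIM63 had a higher level than FBXO32 in every library, but by unequal margins. Its FPKM was 6.95 times that of FBXO32 in TP, 2.34 times in DSP, 3.93 times in YY and 1.97 times in LL, so that FBXO32 was the more reduced of the pair in TP.

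FBXO30 is the F-box ligase also called MUSA1, which in mouse muscle is held down by BMP signalling. Its entry is on chromosome 1, 21999971 to 22016735. FBXO30 was the least abundant ligase, at 7.72 FPKM in TP, 16.8 in DSP, 11.5 in YY and 28.6 in LL. It was low in TP and YY and higher in DSP and LL, with differences of −1.03 in TP minus DSP and −1.25 in YY minus LL. The first of these was no longer 2-fold with a pseudocount of 5 (−0.78), the median ratio scaling (−0.85) or the common sum (−0.59).

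FBXO31, an F-box protein known for directing cyclin D1 to degradation after DNA damage, had a level order unlike those of the other ligases, with DSP far above the rest. It lies on chromosome 6, 2037171 to 2079622, with 8167 bases between its entry and that of MAP1LC3B (2007808 to 2029003). FBXO31 was 58.3 FPKM in TP, 273 in DSP, 98.8 in YY and 90.7 in LL. DSP stood 2.76-fold above YY, the next library, and TP was 1.56-fold under LL. On the log2(FPKM + 1) scale FBXO31 was the 1 gene of the 10 for which DSP was at least 2-fold above each other library, where 1.48% of all genes were so. ULK1 lay just short of this, at 0.99 above the next library. The neighbour MAP1LC3B differed by −0.20 in TP minus DSP, against −2.21 for FBXO31.

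The FOXO factors were the least abundant of the 3 roles, with a summed level of 17.4 FPKM in TP, 97.4 in DSP, 51.4 in YY and 89.1 in LL. FOXO1, on chromosome 11 from 15544859 to 15688360, was 8.49 FPKM in TP, 36.4 in DSP, 28.2 in YY and 21.9 in LL. DSP, YY and LL were within 1.29-fold steps of each other, and TP was 2.58-fold under LL. FOXO3, on chromosome 1 from 83886631 to 84048935, was 8.86 FPKM in TP, 60.9 in DSP, 23.2 in YY and 67.2 in LL. LL and DSP were high and within 1.10-fold of each other, YY was 2.63-fold under DSP, and TP was 2.62-fold under YY. The pair thus had unlike orders in the introduced libraries. FOXO3 over FOXO1 was 1.04 in TP, 1.67 in DSP, 0.822 in YY and 3.06 in LL.

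ULK1 is the kinase that starts autophagosome formation when AMPK activates it and mTORC1 releases it. It lies on chromosome 14, 24875185 to 24913201, and overlaps an unnamed entry, so its reads may be shared. ULK1 was 29.4 FPKM in TP, 141 in DSP, 70.1 in YY and 64.5 in LL. DSP was 2.0-fold above YY, YY and LL were within 1.09-fold, and TP was 2.20-fold under LL. This is the order of FBXO31 and FOXO1 as well, with DSP highest and TP lowest.

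SQSTM1 encodes p62, the receptor that ties ubiquitin-marked cargo to the autophagosome. It lies on chromosome 2, 80296799 to 80329991, and overlaps an entry named C5orf45. SQSTM1 was 186 FPKM in TP, 678 in DSP, 1123 in YY and 586 in LL. It had the highest level of the 10 genes in TP, DSP and YY, and the next highest after TRIM63 in LL. TP was 3.14-fold under LL and YY was 1.66-fold above DSP.

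MAP1LC3B and GABARAPL1 belong to the ATG8 family, small ubiquitin-like proteins that are joined to lipid in the growing autophagosome membrane. MAP1LC3B was 91.7 FPKM in TP, 106 in DSP, 198 in YY and 113 in LL. TP, DSP and LL lay within 1.15-fold steps, and YY was 1.75-fold above LL. GABARAPL1, on chromosome 5 from 64622526 to 64631775, was 9.54 FPKM in TP, 9.46 in DSP, 22.3 in YY and 18.3 in LL. TP and DSP were nearly equal, and both were under both introduced libraries, by 1.92-fold or more. In TP minus DSP, MAP1LC3B differed by −0.20, which turned to 0.27 under the common sum, and GABARAPL1 by 0.01, which turned to −0.17 under the fibre marker scaling.

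Between the indigenous breeds, all 6 ligases and FOXO factors were at least 2-fold lower in TP than in DSP, with a median difference of −2.16 and a range from −3.60 to −1.03. Of the 4 autophagy genes, SQSTM1 (−1.86) and ULK1 (−2.22) were also at least 2-fold lower, and MAP1LC3B and GABARAPL1 were not. In all, 9 of 10 were under 0, where 60.5% of all genes were. Of the 10, 8 were at least 2-fold lower and 0 at least 2-fold higher, where 15.6% of 11689 genes were at least 2-fold lower and 7.76% at least 2-fold higher. The count was 7 under a pseudocount of 5, the median ratio scaling and the common sum, where FBXO30 dropped out. The median of all genes was −0.20 in TP minus DSP. It became −0.04 under the median ratio scaling, 0.20 under the common sum and −0.37 under the fibre marker scaling, so that part of a difference of this size depends on the scaling, but FBXO32 lay between −3.79 and −3.14 under these scalings.

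**Figure D2:**
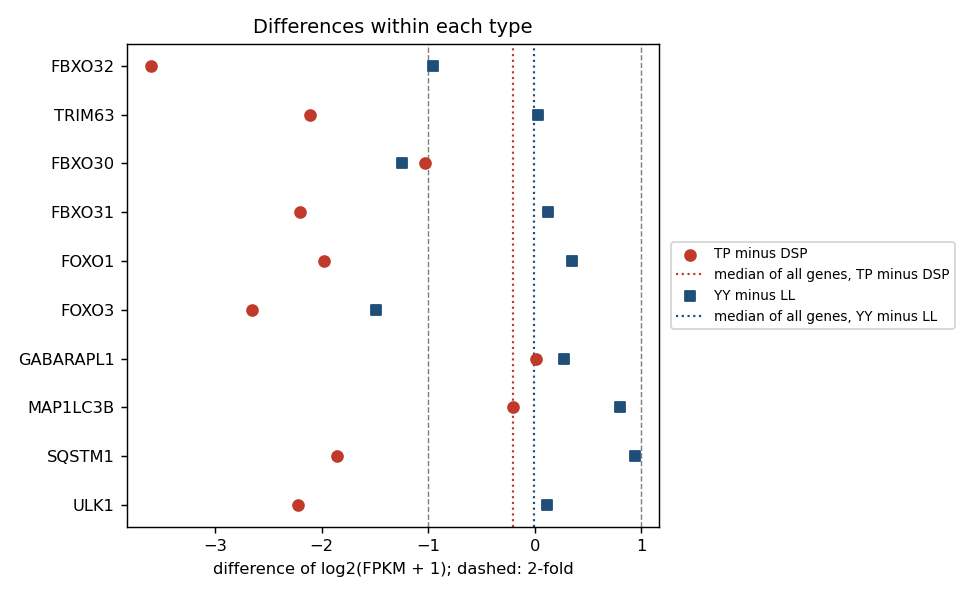
Difference of log2(FPKM + 1) for each gene in TP minus DSP (circles) and YY minus LL (squares), with the medians of all genes as dotted lines and 2-fold as dashed lines. Of the circles, 8 lie past the 2-fold line on the left, against 2 squares (FBXO30 and FOXO3), and MAP1LC3B and GABARAPL1 have circles near the median of all genes.

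The introduced breeds differed in another way. In YY minus LL, FOXO3 (−1.49) and FBXO30 (−1.25) were at least 2-fold lower in YY, FBXO32 was −0.95, and the other ligases and FOXO1 lay between 0.04 and 0.35. Very long transcripts and fibroblast markers were also lower in YY than in LL, with medians of −0.81 and −1.38. In YY minus LL 3 of 10 were under 0, where 50.2% of all genes were. At least 2-fold lower were 2 of 10 and at least 2-fold higher 0 of 10, where 13.4% of 11412 genes were at least 2-fold lower and 16.7% at least 2-fold higher. All 4 autophagy genes were higher in YY, from 0.12 for ULK1 to 0.94 for SQSTM1, though ULK1 and GABARAPL1 turned to −0.45 and −0.28 under the common sum and all 4 turned to between −1.44 and −0.64 under the fibre marker scaling. That scaling brings the geometric mean of the fibre markers, whose sum was 117641 FPKM in YY and 36934 in LL, to a common level. It multiplied the YY values by 0.563 and the LL values by 1.68. It moved the median of all genes to −1.31 and put 8 of 10 at least 2-fold lower in YY, where 7482 of 11777 genes were. Signs in TP minus DSP and in YY minus LL were the same for 4 of 10 genes (FBXO32, FBXO30, FOXO3 and GABARAPL1), where 62.1% of all genes had the same sign.

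Ratios of 2 genes within a library do not depend on how that library was scaled. FBXO32 over MAP1LC3B was 0.166 in TP, 1.85 in DSP, 0.798 in YY and 2.72 in LL. TRIM63 over MAP1LC3B was 1.15 in TP, 4.33 in DSP, 3.13 in YY and 5.36 in LL. Both ratios were lowest in TP, next lowest in YY and highest in LL. FOXO1 over MAP1LC3B was 0.0926 in TP, 0.345 in DSP, 0.143 in YY and 0.195 in LL, also lowest in TP. SQSTM1 over MAP1LC3B separated TP, at 2.03, from DSP at 6.43, YY at 5.69 and LL at 5.20. TP was the low library in this ratio, and the other libraries lay close together.

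**Figure D3:**
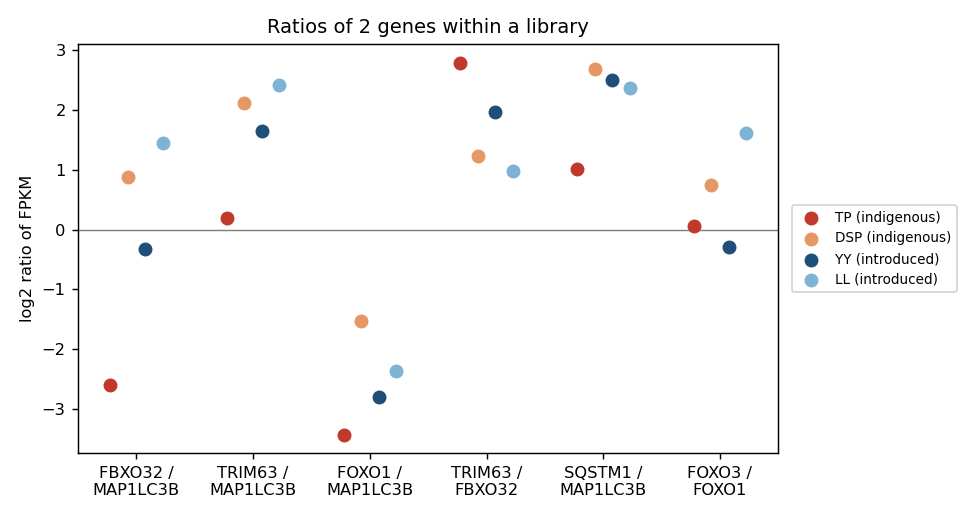
The log2 ratio of FPKM of 2 genes within the same library (vertical axis), for 6 gene pairs, with 1 point per library in the order TP, DSP, YY and LL. The TP point is lowest for FBXO32, TRIM63, FOXO1 and SQSTM1 over MAP1LC3B, and highest for TRIM63 over FBXO32.

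The comparison of the types, indigenous minus introduced, was tested with limma over all 11652 genes, and 0 of the 10 passed. FBXO32 averaged 105 ± 127 FPKM in the indigenous type and 232 ± 105 FPKM in the introduced type (SD, n = 2 each), a difference of −1.97 (SE 1.22, limma adjusted p = 1). TRIM63 averaged 281 ± 249 FPKM against 611 ± 10.8 (SD, n = 2 each), a difference of −1.47 (SE 0.98, limma adjusted p = 1). The SD of the indigenous type was larger than its mean for FBXO32 and nearly as large for TRIM63, because TP and DSP were far apart. GABARAPL1 had the smallest unadjusted p of the 10. GABARAPL1 averaged 9.50 ± 0.0546 FPKM in the indigenous type against 20.3 ± 2.84 FPKM in the introduced type, a difference of −1.02 (SE 0.50, limma adjusted p = 1). Over all genes limma passed 0, with 1.12% at an unadjusted p under 0.05, and 0 of the 10 were among those.

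In 9 of 10 genes the difference between types was under 0, with a median of −0.67, where 52.4% of all genes were under 0 and their median was −0.02. FBXO31 was the exception, at 0.41 (SE 0.90). The count under 0 was 6 without TP, with a median of −0.14, and 10 without DSP, with a median of −1.31, so that the size of the differences rested on TP. FBXO32 was −0.17 and SQSTM1 −0.26 without TP, and FOXO1, FOXO3 and ULK1 turned to 0.53, 0.61 and 1.05. GABARAPL1 stayed at −1.02 without TP and at −1.01 without DSP. Both indigenous libraries were under both introduced ones for TRIM63, GABARAPL1 and MAP1LC3B, 3 of 10, where 9.17% of all genes were. The reverse held for 0 of 10, where it held for 9.47% of all genes. For TRIM63 the step between DSP and LL was 1.32-fold and for MAP1LC3B 1.07-fold.

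Across the types pair by pair, all 10 genes were lower in TP than in YY, where 62.8% of all genes were. At least 2-fold lower were 8 of the 10 and at least 2-fold higher 0, where 9.24% and 8.03% of all genes were. In DSP minus LL 6 of 10 were under 0, where 38.4% of all genes were; 0 of 10 were at least 2-fold lower and 2 at least 2-fold higher, FBXO31 (1.58) and ULK1 (1.11), where 2.75% and 4.92% of all genes were. The authors' deposited table lists 5 of the 10 with a false discovery rate under 0.05 between the types. Of all 18208 genes, with those under 1 FPKM counted in, 3.32% are so listed. FBXO32, TRIM63, SQSTM1 and MAP1LC3B are lower in the indigenous type there, with indigenous over introduced folds of 0.454, 0.460, 0.506 and 0.636 in the authors' deposited table, and FBXO31 is higher, at 1.75. For 9 of the 10 the p-values in the authors' deposited table lay within 1% of those that Fisher's exact test gave here when the pooled FPKM, rounded up, were taken as counts. Such a test reads no spread between the breeds of a type, and its p depends on the level of a gene as well as on its fold. The 5 listed genes are those with the highest mean FPKM of the 10, from 127 for MAP1LC3B to 643 for SQSTM1. GABARAPL1, with a fold of 0.467 at a mean of 14.9 FPKM, is not so listed.

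Genes that act upstream of FOXO had mixed values. AKT2, the AKT form tied to insulin in muscle, was 53.9 FPKM in TP, 129 in DSP, 78.2 in YY and 96.7 in LL. PPARGC1A, the mitochondrial coactivator PGC-1alpha, which restrains FOXO3 in mouse muscle, was itself lowest in TP, at 4.23 FPKM, against 26.2 in DSP, 11.0 in YY and 12.4 in LL. FKBP5, which binds the glucocorticoid receptor complex and is induced by glucocorticoids, was 28.3 FPKM in TP, 220 in DSP, 92.7 in YY and 267 in LL. The receptor gene itself, NR3C1, ranged only from 21.2 FPKM in TP to 37.7 in YY. FOXO4 ranged from 26.6 FPKM in LL to 43.5 in YY, without the low TP value of FOXO1 and FOXO3. SGK1, of the same list, was highest in TP, at 17.6 FPKM, against 10.2 in DSP, 6.31 in YY and 5.66 in LL. TP was lowest for 4 of the 8 genes found, where it was for 34.5% of all genes. Of the 8 genes of this list that were found, 3 were at least 2-fold lower in TP than in DSP and 0 at least 2-fold higher, where 15.6% and 7.76% of all genes were. The median was −0.49.

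Genes known to respond to FOXO did not move as 1 block. Of 12 with enough signal, 5 were at least 2-fold lower in TP than in DSP and 2 at least 2-fold higher, where 15.6% and 7.76% of all genes were. The median was −0.17, close to the −0.20 of all genes. PDK4, the kinase that holds back glucose oxidation in fasting, was 21.4 FPKM in TP, 692 in DSP, 665 in YY and 546 in LL. INSR, the insulin receptor, was 7.77 FPKM in TP, 26.8 in DSP, 11.7 in YY and 28.9 in LL, read from the higher of 2 entries. KLF15 (9.76 FPKM in TP and no less than 20.7 in each other library) and SESN1 (52.2 FPKM in TP, and no less than 116 elsewhere) were also at least 2-fold lower in TP than in each other library. TXNIP, a glucose-responsive inhibitor of thioredoxin, was 550 FPKM in TP, 492 in DSP, 712 in YY and 420 in LL. Higher in TP than in DSP were BNIP3, a receptor for mitophagy, with 139 FPKM in TP against 58.5 FPKM in DSP, and the cell cycle inhibitor CDKN1A, with 8.25 FPKM in TP against 3.17 FPKM in DSP. BNIP3, CDKN1A, KLF15, SESN1, FOXO4, SGK1 and NR3C1 were named after their values were seen. Between the types all 12 were under 0, with a median of −0.43, where 52.4% of all genes were under 0 with a median of −0.02, and 0 of the 12 had an unadjusted limma p under 0.05. By pairs, 11 of 12 were lower in TP than in YY (median −0.80), where 62.8% of all genes were (median −0.22). In DSP minus LL 8 of 13 were lower in DSP (median −0.10), where 38.4% of all genes were (median 0.13).

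Other ligases of muscle differed less between TP and DSP than FBXO32 and TRIM63. Of 22 genes in the list of other ligases and ubiquitin genes, 5 were at least 2-fold lower in TP than in DSP and 0 at least 2-fold higher (median −0.52), where 15.6% and 7.76% of all genes were. Of the 22, 19 were lower in TP than in DSP, where 60.5% of all genes were. Between the types 20 of 22 were under 0, where 52.4% of all genes were. By pairs, 20 of 22 were lower in TP than in YY (median −0.65), where 62.8% of all genes were. In DSP minus LL only 7 of 22 were lower in DSP (median 0.20), where 38.4% of all genes were. TP was the lowest library for 16 of 22, where it was for 34.5% of all genes. NEDD4, a HECT ligase, was 9.72 FPKM in TP, 40.2 in DSP, 28.0 in YY and 49.6 in LL, and it alone in the list was at least 2-fold lower in TP than in each other library. FBXO40, a muscle-restricted F-box protein that targets IRS1 in mouse, was 68.7 FPKM in TP, 233 in DSP, 131 in YY and 165 in LL. UBB, a polyubiquitin gene, was 644 FPKM in TP, 701 in DSP, 2052 in YY and 752 in LL. UBB was thus high in YY and at like levels in the other libraries, unlike FBXO32 and TRIM63.

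In TP minus DSP the core autophagy genes differed less than ULK1 and SQSTM1. Of 26, TP was lowest for 19, where it was for 34.5% of all genes. In TP minus DSP 5 were at least 2-fold lower and 1 at least 2-fold higher, where 15.6% and 7.76% of all genes were. Of the 26, 23 were lower in TP than in DSP, where 60.5% of all genes were. The list median was −0.61, against −0.20 for all genes. In TP minus YY 25 of 26 were under 0 and in DSP minus LL 7 of 26, where 62.8% and 38.4% of all genes were. ATG5, which conjugates to ATG12 to lipidate ATG8 proteins, was 5.56 FPKM in TP, 14.8 in DSP, 14.6 in YY and 13.5 in LL. ATG14, the subunit that brings the lipid kinase complex to the forming membrane, was 3.11 FPKM in TP, 8.22 in DSP, 4.0 in YY and 7.88 in LL. The ATG8 relatives of MAP1LC3B went with YY. GABARAP was 249 FPKM in TP, 122 in DSP, 464 in YY and 106 in LL, in the higher of 2 entries, and GABARAPL2 was 84.9 FPKM in TP, 77.4 in DSP, 160 in YY and 70.3 in LL. GABARAP and GABARAPL2 were thus not lowest in TP, while their relative GABARAPL1 was lower in TP than in both introduced libraries.

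Among receptors and lysosomal genes, 6 of 19 were at least 2-fold lower in TP than in DSP and 1 at least 2-fold higher (median −0.66), where 15.6% and 7.76% of all genes were. BAG3, a chaperone partner that works with p62 on damaged sarcomere proteins, was 127 FPKM in TP, 227 in DSP, 448 in YY and 214 in LL. VCP, the segregase that pulls ubiquitin-marked proteins apart, was 131 FPKM in TP, 290 in DSP, 246 in YY and 269 in LL. TOLLIP, an adaptor of endosomes and autophagy, was 25.3 FPKM in TP, 73.0 in DSP, 58.6 in YY and 43.9 in LL. MITF, a transcription factor of the family that controls lysosome genes, was 7.26 FPKM in TP, 41.3 in DSP, 15.9 in YY and 59.7 in LL in the highest of 3 entries. In these 5 lists 0 genes had an unadjusted limma p under 0.05 between the types.

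**Figure D4:**
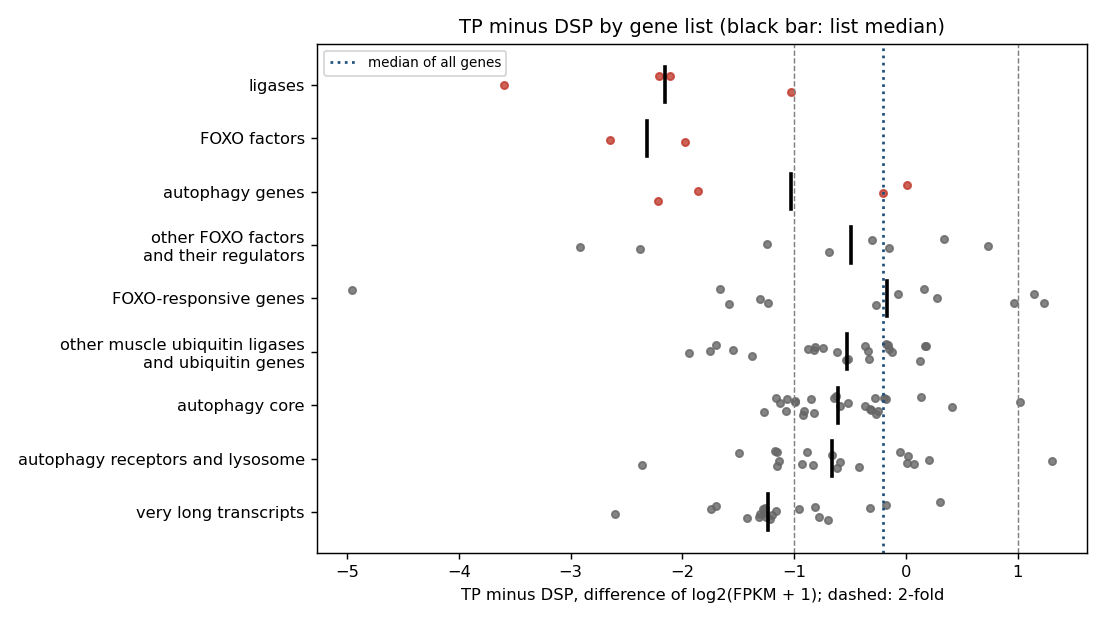
Difference of log2(FPKM + 1) in TP minus DSP for each gene averaging 1 FPKM or more in these libraries, by list, with black bars at list medians (points are spread vertically for sight only). The medians of ligases (−2.16) and FOXO factors (−2.32) lie further left than those of the wider lists (from −0.66 to −0.17), and very long transcripts stand at −1.23.

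Other features of the libraries moved with these values. Loci under 300 bp outside the mitochondrial genome held 1.39% of the summed FPKM in TP, 20.6% in DSP, 5.55% in YY and 17.7% in LL, low in TP and YY as FBXO30 and FOXO3 were. Mitochondrial genes held 33.2% in TP, 24.0% in DSP, 25.4% in YY and 29.3% in LL. Very long transcripts, whose coverage is sensitive to RNA length, had a median of −1.23 in TP minus DSP, with 19 of 20 lower in TP and 13 of them at least 2-fold, where 60.5% and 15.6% of all genes were. In YY minus LL their median was −0.81, with 16 of 20 lower in YY and 6 at least 2-fold, where 50.2% and 13.4% of all genes were. HUWE1, a very large HECT ligase, was 33.7 FPKM in TP, 115 in DSP, 44.0 in YY and 96.5 in LL. NEB and XIRP2, the most abundant of that list, stood at 786 and 543 FPKM in TP, where the lowest of the other libraries had 1116 and 1133 FPKM. TP was the lowest library for 15 of the 20 very long transcripts, where it was for 34.5% of all genes. In TP minus YY the long transcripts had a median of −0.14, with 15 of 20 lower in TP, where 62.8% of all genes were. Of these transcripts, 1 of 20 was at least 2-fold lower in TP minus YY. The 10 genes had a median of −1.26 in TP minus YY, with 10 of 10 lower in TP and 8 of 10 at least 2-fold lower. Of all genes, 9.24% were at least 2-fold lower in TP minus YY. Summed levels of markers of cells around the fibres were higher in TP. Fibroblast markers (7 of 7 found) summed to 704 FPKM in TP and 116 to 375 in the others, smooth muscle markers (5 of 6) to 212 and 53.2 to 104, and endothelial markers (6 of 7) to 116 and 52.4 to 80.9. Adipocyte markers (5 of 7) summed to 143 FPKM in TP and 67.0 to 98.0 in the others, with LEP at 0 in all but TP, macrophage and leukocyte markers (5 of 7) to 24.3 and 7.67 to 9.95, and red blood cell genes (4 of 4) to 528 and 80.9 to 171, with AHSP at 0 in YY and LL. Such sums follow the most abundant members: in TP, CFD was 97.4 FPKM and C1QA 15.1. Not all markers were high in TP. PLIN4 (22.7 FPKM) and CD68 (2.06 FPKM) were lowest there, and VWF and PDGFRA were lower in TP than in DSP and LL. These markers were named after their values were seen. In YY minus LL all 7 fibroblast markers were lower in YY and 5 at least 2-fold (median −1.38), where 50.2% and 13.4% of all genes were. Fibre markers had a median of 0.16 in TP minus DSP, with 3 of 8 lower in TP and 0 at least 2-fold lower, where 60.5% and 15.6% of all genes were. In TP minus YY the fibre markers had a median of −0.77, with 8 of 8 lower in TP and 2 at least 2-fold lower, where 62.8% and 9.24% of all genes were. The 2 were DES at −1.60 and TCAP at −1.41, named after their values were seen. The part of all these features in the values of the 10 genes was not tested.

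Genes with the pattern nearest to FBXO32 were sought among 6016 named genes averaging 5 FPKM or more, by the root mean square distance between centred log2 values over the 4 libraries. The nearest were NOS1 (distance 0.23), AMPD3 (0.41), PLIN2 (0.50), ABHD2 (0.54) and FKBP5 (0.59). NOS1, the neuronal nitric oxide synthase of muscle, was 1.93 FPKM in TP, 31.5 in DSP, 18.9 in YY and 38.0 in LL. AMPD3, an AMP deaminase, was 1.31 FPKM in TP, 24.3 in DSP, 28.1 in YY and 81.2 in LL. TRIM63 ranked 10 and FOXO3 ranked 20 in this order, SQSTM1 ranked 85, FOXO1 131, FBXO30 234, ULK1 237, FBXO31 996, GABARAPL1 1554 and MAP1LC3B 2222. The nearest genes to MAP1LC3B were TSTA3, CH242-236H6.1, TMUB1, CCT2 and RANGAP1, all within 0.06, and GABARAPL1 ranked 898. With 4 values per gene, many genes lie near any such pattern.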

How the data were processed

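RNA of longissimus dorsi muscle was sequenced in 4 libraries, 1 per breed. Per the submitters' processing notes TopHat was used; for the TopHat version, genome build, annotation and FPKM program the entry is "not given in the sources used here". Deposited by the authors were 1 FPKM per gene and breed, their pooled FPKM, a ratio (fold change) of indigenous over introduced, and a p-value with a false discovery rate. Depth is unknown. The other deposited sheets repeat rows of the same table and were not used. Genes were matched by file name or by the symbol of the gene ID (10612 IDs had one), and the entry with the highest mean was kept.

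Values were taken as log2(FPKM + 1). For the types, limma 3.58.1 was run in R 4.3.3 with a trend in the prior variance, over genes averaging 1 FPKM or more, with Benjamini-Hochberg adjustment at 0.05. An exact permutation test of 2 against 2 libraries cannot go under p = 0.333. Breeds of a type were set side by side without a test, with 2-fold as the limit. Lists counted as called the genes past 2-fold, and named were the 2 most abundant and the 2 with the largest TP minus DSP difference per list, beside the 10 genes and the 5 nearest in pattern to FBXO32 and to MAP1LC3B. The fit was tried on simulated data that gave every gene the same residual spread, the median one. The simulation does not cover genes such as FBXO32, whose TP and DSP libraries lay far apart. Python 3.11.15 with numpy 2.4.6, pandas 2.3.3, scipy 1.17.1 and matplotlib 3.10.9 was used for the rest. The genes and lists were chosen with earlier results of these data known. Some genes that the naming rule picks are not reported here. Sequences and promoters are not analysed here, and list members without an entry of that name were not used.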

Additional observations from a re-analysis of the deposited data

How the results depend on the processing

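The types were refitted with a pseudocount of 0.1 or 5, no filter or one of 5 FPKM, 3 rescalings, each library left out, no trend or a robust prior, and summed entries. Limma passed 0 genes with all 4 libraries, 3 with a pseudocount of 0.1, 4 under the fibre marker scaling and 0 to 29 with a library left out (29 without YY), and none of the 10 genes was among them; without a model, 53 genes had the 2 types separated by a 2-fold gap or more between their nearest libraries. The smallest limma adjusted p of the 10 under any of these fits was 0.973. The count of the 10 with a difference under 0, an alternative chosen after seeing the data, was 9 with all libraries, 8 under the fibre marker scaling and 6 to 10 with a library left out. Of 140 single-gene refits 132 kept their direction and 8 reversed: FOXO1 (0.53), FOXO3 (0.61) and ULK1 (1.05) without TP, FBXO31 (−0.69) without DSP, FBXO30 (0.00113) and FOXO3 (0.0301) without LL, and ULK1 without YY (0.00173) and under the fibre marker scaling (0.0164). With a library left out these genes ranged from −1.25 to 0.00113 (FBXO30), −0.69 to 1.52 (FBXO31), −1.45 to 0.53 (FOXO1), −2.04 to 0.61 (FOXO3) and −1.17 to 1.05 (ULK1). A lone library was taken to vary like those of the other type. In YY minus LL, 8 genes were at least 2-fold lower under the fibre marker scaling, against 2 as deposited. Of all genes, 7482 of 11777 were so under that scaling. Under the median ratio scaling 1 (SQSTM1) was at least 2-fold higher, against 0 as deposited, where 2128 of 11410 genes were. Under the fibre marker scaling 3 genes stood at least 2-fold under each other library in TP, against 6. The cause was not tested. The count at least 2-fold lower in TP than in DSP was 7 or 8 throughout. No paired analysis was possible, because each library is of a different breed and nothing in the labels links an indigenous library to an introduced one. With 1 library per breed and no depth, counting error and animal-to-animal spread are unknown.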

Other observations

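Several stress and membrane genes of the same lists were highest in YY, the library with the highest SQSTM1. ZFAND5, a ubiquitin-binding protein that rises in rodent muscle atrophy, was 37.5 FPKM in TP, 33.1 in DSP, 119 in YY and 29.8 in LL. EIF4EBP1, the repressor of cap-dependent translation, was 88.1 FPKM in TP, 44.6 in DSP, 191 in YY and 44.8 in LL. LAMP1, a lysosomal membrane protein, was 46.3 FPKM in TP, 18.0 in DSP, 73.4 in YY and 17.7 in LL, so that TP and YY were above DSP and LL, the reverse of FBXO30. LAMP2, of the same list, went the other way, at 59.1 FPKM in TP, 90.8 in DSP, 40.2 in YY and 102 in LL. YY was at least 2-fold above each other library for 2 of 22 other ligases and ubiquitin genes and 2 of 12 FOXO-responsive genes. This held for 0 of 19 receptors and lysosomal genes, 0 of 26 core autophagy genes and 0 of 8 genes upstream of FOXO. The share over all genes was not counted. ZFAND5, EIF4EBP1, LAMP1 and LAMP2 were named after their values were seen, and no test was run on them.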
